A study of Drosophila melanogaster with 15 samples.

Results

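Embryos labelled svb -/- were compared with wt embryos on 5 arrays each, 10 of the 15 arrays of the series, across the 8162 of 18769 non-control probe sets whose mean log2 signal was at least 5 (a signal of 32) in either genotype. The svb embryos carried the allele svbR9 of shavenbaby, an X-linked gene. The wt embryos carried no mutation that the labels name. The other 5 arrays of the series, from embryos labelled pri -/- (allele pri1), enter only the shared estimate of the spread and a few levels set beside the others. All embryos were Drosophila melanogaster, laid in a window of 2 h at 25 °C, aged at 18 °C and taken at the stage of 13 to 15 h after egg laying, and each array held RNA from 200 whole embryos selected by hand, the mutant ones by the absence of a fluorescent balancer chromosome. Neither the sex of the embryos nor the stock behind the wt embryos is given in the labels or methods, so that genotype, stock and sex cannot be told apart. The samples are described as independent, and 5 arrays a group set the precision of all values.

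Svb is a zinc finger transcription factor of the epidermis. In the late embryo it is expressed in the rows of cells that form trichomes, the dorsal hairs and ventral denticles of the larval cuticle, and embryos without it have a largely naked cuticle. Its known targets act at the apical face of the cell: some organise bundles of actin filaments, some belong to the extracellular matrix held by zona pellucida (ZP) domain proteins between membrane and cuticle, and others make or modify the cuticle itself. The protein is made as a repressor and becomes an activator once short peptides encoded by pri trigger the removal of its N-terminal part.

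Names could be given to 134 of the tested probe sets, those joined by their values to the 149 rows of the authors' table of selected genes. The table was itself selected on these arrays, for lower signals in svb and in pri embryos and a difference between the mutants. Direction and counts among named genes are therefore a description and not independent evidence, and no gene chosen for being higher in svb embryos has a name here. The probe sets of svb and pri are among those without a name, so that the genotype labels had no check against the mutated genes. The same holds for all members of 9 of the 10 marker lists (epidermis, trachea, muscle, neurons, glia, hemocytes, fat body, germ cells and sex). On the salivary gland list, PH4alphaSG1 was the only named member of 3, with 182 ± 49.9 in svb embryos and 207 ± 36.1 in wt embryos (SD, n = 5 each). In whole embryos, fewer cells of a type and less RNA per cell cannot be told apart.

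One of the svb arrays was unlike the rest. The leading principal component of the tested probe sets held 38.4% of the variance, and on it svb replicate 4 had a score of 71.9, while the other 9 arrays lay between -28.1 and 16.9. It also had the lowest median signal (9.49, against 11.99 to 15.2 on the other svb arrays and 12.3 to 14.6 on the wt arrays) and the lowest mean correlation with its group, 0.861. Median signals averaged 12.8 ± 2.26 in svb embryos and 13.6 ± 0.931 in wt embryos (SD, n = 5 each; exact permutation test, two-sided p = 0.508). As a sign of RNA quality, the ratio of the 3' to the 5' control probe set of eIF-4a was 5.98 ± 0.459 in svb embryos and 8.002 ± 1.74 in wt embryos, and that of GAPDH was 2.51 ± 0.0921 in svb embryos and 3.11 ± 0.516 in wt embryos (SD, n = 5 each; exact permutation test, two-sided p = 0.0317 for either). After adjustment over 5 measures both stood at p = 0.0794 (exact permutation test, the smallest p possible being 0.00794). The part of these ratios in the results that follow was not tested, and counts of calls are also given without svb replicate 4.

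In svb embryos 319 of the tested probe sets were lower and 172 were higher at a limma adjusted p under 0.05, which is 3.91% and 2.11% of 8162 (6.02% in either direction). Without svb replicate 4 the counts were 351 lower and 190 higher. The median log2 fold change of all tested probe sets was -0.00. Many calls were dim: the svb mean of 101 lower calls and the wt mean of 55 higher calls lay under the filter level. With such means set to that level, 97 of the lower calls differed by at least 2-fold, 19 by at least 4-fold and 3 by at least 8-fold, while 51 of the higher calls differed by at least 2-fold, 4 by at least 4-fold and 0 by at least 8-fold. The median fold was then 1.70 for the lower and 1.68 for the higher calls (1.94 and 1.93 as fitted). On the signal axis the share of lower calls was 4.45% for mean signals of 32 to 64 and 3.14% above 1024, with 2.64% and 0.923% for the higher calls.

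**Figure D1:**
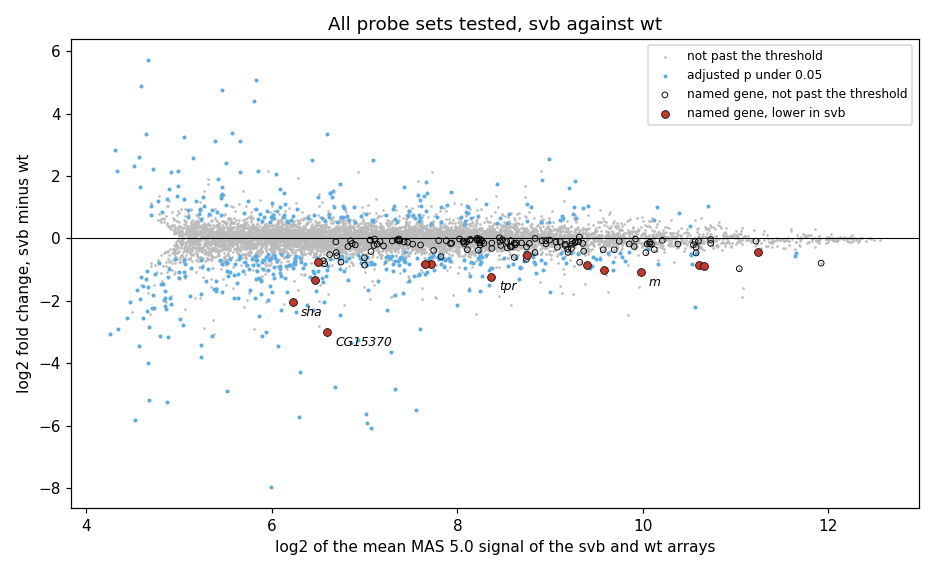
Log2 fold change (svb minus wt) of the 8162 tested probe sets against the log2 of the mean signal of the svb and wt arrays, 1 point per probe set. Most points lie near 0, calls spread in both directions, and the 14 named genes past the threshold (red) lie below 0, with CG15370 and sha the lowest of them.

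Of the 134 named genes, 14 were lower in svb embryos (10.4%, where 3.91% of all tested probe sets were) and 0 were higher by limma, where 2.11% of all were. At an unadjusted p under 0.05 in the same fit the counts were 26 lower (19.4%) and 0 higher, beside 896 lower (11.0%) and 578 higher (7.08%) among the 8162 tested. The groups did not overlap for 13 named genes, beside 4.06% of all tested probe sets that were lower without overlap, 2.43% that were higher and 6.48% in either direction. The median level of the named genes was 88.7% of wt, and 130 of the 134 had a negative log2 fold change, against a median of 101% and 50.4% negative over all tested probe sets. The 16 named members of a list of 24 known Svb targets held 8 of the 14 calls, with a median of 59.1% of wt, while the 118 other named genes held 6 calls (5.08%), with a median of 90.1%. All 14 calls were kept without svb replicate 4. Nothing is read from these shares, because the table was chosen on these arrays. The dimmest named gene had a wt mean of 107, so that the filter removed none of the 134, and the 120 that did not pass ranged between 59.0% and 99.9% of wt (ratios of mean signals).

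Among known targets the difference was largest for sha (shavenoid, needed for hairs to grow out of the epidermal cell). The signals of sha were 31.9, 22.4, 32.5, 27.1 and 34.4 on the svb arrays, against 136, 96.0, 124, 116 and 131 on the wt arrays. The 5 svb arrays lay together around the filter level of 32, 2 of them just over it, and the highest reached 34.4, far below the lowest wt array at 96.0. On average sha had 29.7 ± 4.86 in svb embryos and 121 ± 15.6 in wt embryos (SD, n = 5 each), at least 3.74-fold lower when the filter level stands in for the svb mean (log2 fold change of -2.03, SE 0.17, limma adjusted p = 9.51e-07). It kept its call under all 21 other settings.

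Among the calls with a name, the ZP domain proteins were the largest family on these lists. Of 13 genes on the ZP list 6 were named, and 4 of them were lower (m, mey, nyo and neo), with a median of 56.6% of wt for the 6. For this list and those that follow, the share lower over all tested probe sets was 3.91%. Named members come from a table selected for lower signals on these arrays, so their counts are descriptions. Signals of m (miniature, which ties the apical membrane to the cuticle) were 611, 481, 498, 918 and 788 on the svb arrays, against 1161, 1808, 1234, 1299 and 1297 on the wt arrays. No svb array reached the lowest wt array, and the means were 659 ± 189.6 in svb embryos and 1359.9 ± 257 in wt embryos (SD, n = 5 each; log2 fold change of -1.07, SE 0.18, limma adjusted p = 0.00118). The wt spread of m rested on replicate 2, the others lying between 1161 and 1299.

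The remaining ZP genes mey, nyo and neo (morpheyus, nyobe and neyo), whose products occupy different zones of the matrix over a growing denticle, were lower by a similar factor. The signals of mey were 1039, 755, 1228, 1536 and 1104 on the svb arrays, against 1767, 2283, 2023, 2028 and 1824 on the wt arrays. Those of nyo were 568, 481, 413, 388 and 530.3 on the svb arrays, against 716, 1086, 1103, 599 and 849 on the wt arrays, and those of neo 1096, 684, 1632, 1231 and 1144 on the svb arrays, against 2029, 2145, 2392, 1824 and 1926 on the wt arrays. In each of the 3 genes the groups did not overlap, although the order of the svb arrays differed: svb replicate 4 was the highest for mey and the lowest for nyo, and replicate 3 the highest for neo. Their fold changes were 1.79 for mey (limma adjusted p = 0.00420), 1.80 for nyo (0.00565) and 1.84 for neo (0.00595), all lower in svb embryos, and the 95% intervals of the log2 fold change overlapped (-1.19 to -0.49, -1.21 to -0.48 and -1.26 to -0.50).

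The other ZP genes of the set, tyn (trynity) and dyl (dusky-like), did not pass. Signals of tyn were 1405, 1162, 1621, 693 and 1541 on the svb arrays, against 1948, 1757, 1956, 963 and 2191 on the wt arrays, with replicate 4 the lowest array in both genotypes. Signals of dyl were 1552, 1706, 717, 1202 and 1828 on the svb arrays, against 1423, 1846, 2041, 1278 and 1629 on the wt arrays. For both genes most svb arrays lay inside the wt range, at 72.9% and 85.3% of wt on average (limma adjusted p = 0.441 and 0.641). The interval of the log2 fold change was -1.07 to 0.14 for tyn, which holds both 0 and the estimates of mey, nyo and neo, and -0.82 to 0.25 for dyl, which holds 0 and none of these estimates.

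Of the 15 genes on the list of actin regulators 5 were named, and sha was the only one past the threshold (median 70.3% of wt for the 5). The genes nearest to it were mwh (multiple wing hairs, which limits the number of hairs a cell starts) and f (forked, which bundles actin filaments in bristles and hairs). Signals of mwh were 72.3, 59.6, 80.3, 54.9 and 139.9 on the svb arrays, against 119.7, 119, 183, 93.7 and 150.3 on the wt arrays. On 4 svb arrays mwh lay below all wt arrays, while svb replicate 5 lay inside the wt range (log2 fold change of -0.76, SE 0.25, limma adjusted p = 0.0957; without svb replicate 5 it passed, with an adjusted p of 0.0162). Signals of f were 226, 227, 128, 97.9 and 255 on the svb arrays, against 236, 285, 284, 192 and 333 on the wt arrays. Here svb replicates 3 and 4 were below all wt arrays and the other 3 inside their range (log2 fold change of -0.58, SE 0.26, limma adjusted p = 0.250). The filamin gene cher averaged 1247 ± 172 in svb embryos and 1412 ± 172 in wt embryos (SD, n = 5 each; 88.3% of wt) and the villin relative qua stood at 97.8% of wt, neither past the threshold.

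On the cuticle and tanning list, with 7 of 16 genes named, dsx-c73A was past the threshold, and the median of the 7 was 88.6% of wt. The signals of dsx-c73A were 548, 504, 395, 453 and 648 on the svb arrays, against 925, 1194, 1149, 824 and 989.8 on the wt arrays. The groups were well apart, with the highest svb array at 648 and the lowest wt array at 824 (log2 fold change of -1.003, SE 0.15, limma adjusted p = 0.000548). The prolyl hydroxylase gene PH4alphaEFB, another known target, had signals of 767, 729, 724, 1392 and 783 on the svb arrays, against 836, 1004, 839, 1241 and 931 on the wt arrays. Its svb replicate 4 was above all wt arrays and the other 4 below all of them, and no array lay near the svb mean of 879 (limma adjusted p = 0.736, and 0.221 without svb replicate 4). On the same list CG12009 stood at 82.4% and PH4alphaSG1 at 88.1% of wt (limma adjusted p = 0.759 and 0.636).

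Among targets without a family on these lists, CG14395 and CG16798 were lower in svb embryos. Signals of CG14395 were 45.3, 33.4, 45.5, 56.6 and 77.5 on the svb arrays, against 105, 109.9, 135, 158 and 119.9 on the wt arrays. All svb arrays lay below all wt arrays (41.2% of wt; log2 fold change of -1.32, SE 0.27, limma adjusted p = 0.00559). Signals of CG16798 were 134, 90.6, 150.4, 147 and 209.7 on the svb arrays, against 205, 275, 359, 196 and 245 on the wt arrays. Its groups overlapped through svb replicate 5, which was above 2 wt arrays (log2 fold change of -0.82, SE 0.21, limma adjusted p = 0.0238), and its call was lost without svb replicate 2 (limma adjusted p = 0.0611), wt replicate 2 (0.0651) or wt replicate 3 (0.0612), and with the 10 svb and wt arrays fitted alone (0.0715). CG4702 (94.5% of wt), CG31559 (94.8%) and the ecdysone-inducible gene ImpE1 (86.3%) did not pass (limma adjusted p = 0.803, 0.858 and 0.799), and for CG4702 the interval of the log2 fold change, -0.35 to 0.18, held none of the estimates of the 14 genes that passed.

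**Figure D2:**
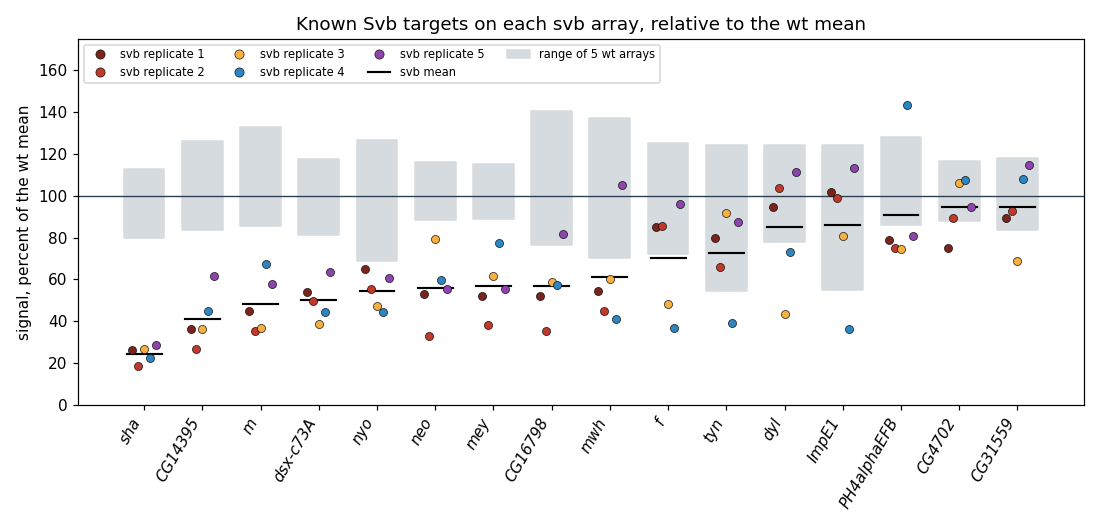
Signal of the 16 known Svb targets on each svb array as a percentage of the wt mean (y axis), sorted by the svb mean (black line); grey bars span the 5 wt arrays. The svb arrays of sha lie between 18.6% and 28.5%, while for f, tyn, dyl and ImpE1 some svb arrays lie inside the wt range and others under it, and for PH4alphaEFB 1 array lies above it and 4 under it.

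The 16 targets spread over a wide range of levels. The svb mean ran through 24.6% of wt for sha, 41.2% for CG14395, 48.5% for m and 50.1% for dsx-c73A, then 54.7% to 57.1% for nyo, neo, mey and CG16798, 61.1% for mwh, 70.3% for f and 72.9% for tyn, and lay between 85.3% and 94.8% for the last 5. Counted by array, 11, 10, 13, 13 and 8 of the 16 targets were below the lowest wt array on svb replicates 1 to 5. Of the 118 other named genes, 48, 47, 33, 24 and 49 also lay below the lowest wt array on these replicates. The share over all tested probe sets was not counted by array, and nothing is read from these counts. The median level of the targets on these arrays was 59.8%, 52.4%, 59.5%, 51.2% and 81.3% of the wt mean, so that replicate 5 had the highest targets and replicate 4, apart in other respects, did not.

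Among named genes outside the target list, the largest difference was that of CG15370, a gene without an assigned role here. Its signals were 21.3, 29.5, 10.5, 24.4 and 26.2 on the svb arrays, against 171, 196, 135, 145 and 209.6 on the wt arrays. Every svb array was under the filter level of 32, and every wt array was over 135 (22.4 ± 7.26 in svb embryos and 171 ± 31.8 in wt embryos; SD, n = 5 each), at least 5.28-fold lower (log2 fold change of -3.00, SE 0.36, limma adjusted p = 4.78e-05). It was, with sha, among the named genes left with less than 50.0% of the wt level, a group of 5 that also holds CG14395, m and tpr.

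The serine protease list had 6 named members of 11, and 2 of them, tpr and CG4914, were lower, beside 3.91% of all tested probe sets. Signals of tpr were 165, 176, 170.1, 205 and 284 on the svb arrays, against 396, 484, 538, 395 and 485 on the wt arrays. The svb arrays lay close together apart from replicate 5, which at 284 was still below the lowest wt array at 395 (log2 fold change of -1.22, SE 0.17, limma adjusted p = 0.000172). Signals of CG4914 were 141, 127, 142, 186 and 155 on the svb arrays, against 245, 266, 345, 272 and 215 on the wt arrays. Its groups did not overlap either (1.78-fold lower; limma adjusted p = 0.00511). Next on the list, CG1632 and mas (masquerade, a protease homologue without catalytic activity) stood at 78.0% and 78.1% of wt (limma adjusted p = 0.221 and 0.310). The last members, CG11836 and flz, stood at 90.3% and 97.3%, and the median of the 6 was 78.1%.

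The 3 other calls were closer to the threshold. Signals of CG13698 were 325, 318, 302, 358 and 439.5 on the svb arrays, against 457, 556, 642, 444 and 449.5 on the wt arrays. Those of CG14756, the brightest of the 14 genes, were 1750.0, 1906, 2294, 2411 and 1918 on the svb arrays, against 2789, 2936, 2515, 2998 and 2646 on the wt arrays. The groups did not overlap for either gene, but for CG13698 the highest svb array, at 439.5, was next to the lowest wt array, at 443.6, and the folds were 1.46 and 1.36 (limma adjusted p = 0.0303 and 0.0364). Signals of CG17211 were 75.0, 42.2, 64.7, 85.1 and 73.7 on the svb arrays, against 135, 118, 81.1, 114 and 116 on the wt arrays, where wt replicate 3 lay below svb replicate 4 (1.68-fold lower, limma adjusted p = 0.0291). Their calls depended on single arrays and on which arrays were fitted. With the 10 svb and wt arrays fitted alone, CG13698, CG14756 and CG17211 all lost their calls (limma adjusted p = 0.0771, 0.0590 and 0.0687), and 10 named genes and 7 known targets were lower. CG14756 also lost its call without a filter (0.0772) and without a trend (0.0567). In fits without 1 array, CG14756 lost its call without svb replicate 1, 2 or 5 or wt replicate 1, 2, 4 or 5 (limma adjusted p = 0.0574 to 0.101), CG17211 without svb replicate 2 or 3 or any wt replicate but 3 (0.0582 to 0.0754), and CG13698 without svb replicate 1, 2 or 3 or wt replicate 2 or 3 (0.0643 to 0.0895). The 10 genes with an adjusted p under 0.01 kept their calls under all 21 other settings.

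**Figure D3:**
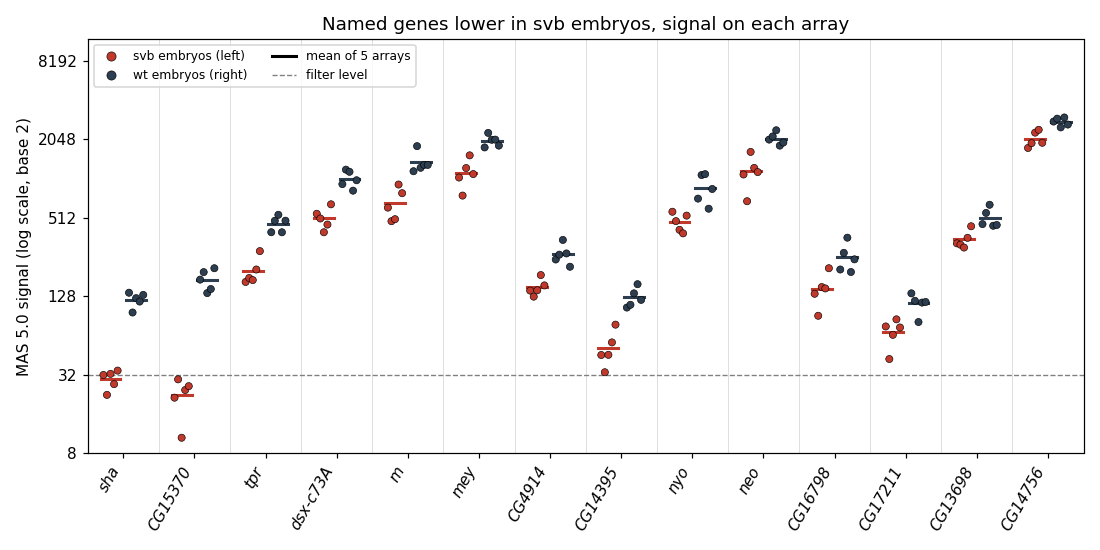
Signal on each array (y axis, logarithmic) for the 14 named genes past the threshold, ordered by adjusted p, with svb arrays left and wt arrays right in each column and a bar at the mean of 5 arrays. The svb arrays of sha and CG15370 sit around or under the filter level of 32 (dashed), and overlap between the groups is seen for CG16798 and CG17211 alone.

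Next in order were 5 genes that did not pass. CG17562, a fatty acyl-CoA reductase by similarity, had no overlap between the groups, with 72.5, 85.7, 74.3, 78.2 and 92.3 on the svb arrays, against 103, 116, 155, 103 and 105 on the wt arrays (limma adjusted p = 0.0651). CG11905 stood at 59.3% of wt (0.0633), mwh at 61.1% (0.0957), CG9514 at 69.0% (0.0989) and CHOp24, a p24 protein of transport between endoplasmic reticulum and Golgi, at 59.0% (0.126; all limma adjusted p). Their levels were in the range of the genes that passed. CHOp24 had 383, 504, 608, 603 and 271 on the svb arrays, against 852, 847, 430.3, 1087 and 799 on the wt arrays, where wt replicate 3 lay among the svb arrays and without it CHOp24 passed (limma adjusted p = 0.0351).

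The lists of redox and lipid enzymes, of the secretory pathway and of adhesion and polarity held no call. The 15 named of 16 redox and lipid enzymes had a median of 86.8% of wt, with CG17562 and CG9514 first, then the cuticle cytochrome P450 gene Cyp301a1 at 80.3% and CG13082 at 77.7% (limma adjusted p = 0.361 and 0.420). The 5 named of 9 secretory pathway genes had a median of 92.3%, with Gmap, SrpRalpha and TRAM at 94.3%, 92.1% and 92.3%. The 5 named of 6 adhesion and polarity genes, fw, crok, Rab23 and CG9095 among them, had a median of 92.5% and a range of 87.2% to 98.6%. All of these genes belong to the table chosen for falls, and their medians stand beside 101% for all tested probe sets.

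The list nearest to wt was that of the mitochondrial ribosome, with a median of 95.7%. Its 4 named genes had 97.2% (mRpL45), 98.5% (mRpL51), 94.3% (mRpL47) and 92.7% (mRpL46) of the wt signal, and the chaperonin subunits CCT4 and CCT1 had 87.4% and 92.9%. Of the ecdysone pathway, 3 of 8 genes were named: vri stood at 85.6%, ImpE1 at 86.3% and the nuclear receptor Hr3 at 85.5% of wt, with a log2 interval of -1.11 to 1.00 for Hr3, which holds the estimate of dsx-c73A as well as 0. The 4 named genes with a positive log2 fold change, the nucleolar gene Fib, kar, CG5742 and Past1, had values of 0.05, 0.02, 0.00 and 0.00 (limma adjusted p at least 0.959).

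A pair of lists was made from stainings of svb embryos. Of the 21 genes on the list with a weaker stain, 19 were named and 2 were lower on the arrays (CG4914 and CG13698), with a median of 78.1% of wt. Without svb replicate 4, CG11905 and CG9184 of this list were lower too (limma adjusted p = 0.0140 and 0.0335). In that fit 351 of all 8197 probe sets tested were lower. This list leaves out the known targets, whose stain the paper also reports as weaker in svb embryos. Of the 16 named targets 8 were lower, with a median of 59.1%, and over all tested probe sets 3.91% were lower. Of the 10 genes on the list without a weaker stain, 7 were named and 2 were lower (CG15370 and tpr), with a median of 82.9%, Mvd, an enzyme of the mevalonate pathway, being at 82.9% (limma adjusted p = 0.368). For CG15370, tpr and CG17562 on this list the paper gives no expression in the epidermis. The 2 lists are therefore no test of how stain and array signal relate. By chromosome, 2 of the 30 named X-linked genes and 12 of the 104 autosomal ones were lower, with medians of 90.0% and 88.1% of wt. Beside these stands the share of 3.91% lower over all tested probe sets. It cannot be split by chromosome, because probe sets without a name have no position here, and nothing is read from the 2 counts.

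**Figure D4:**
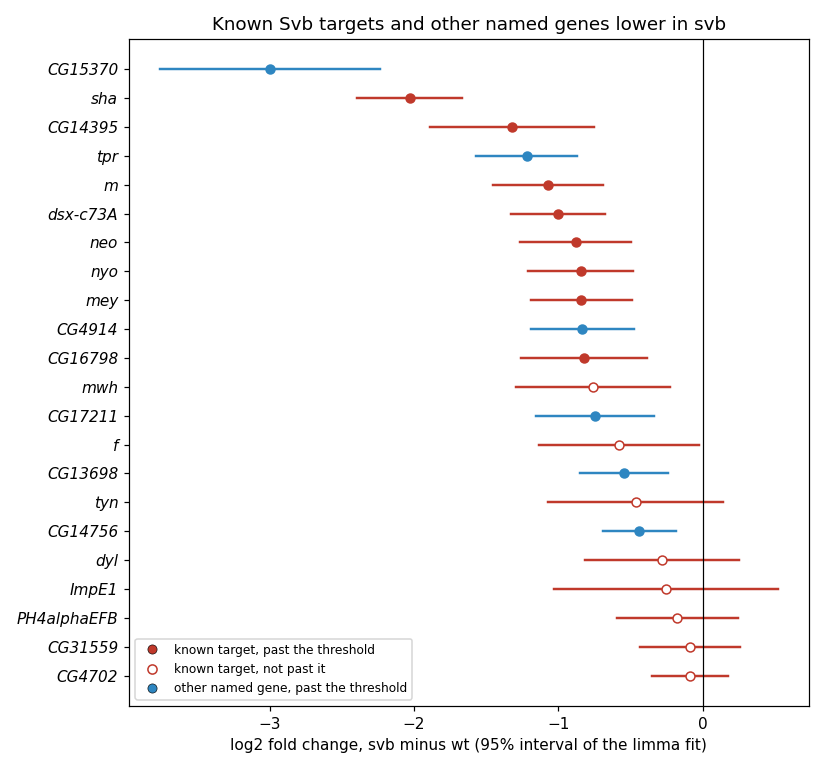
Log2 fold change (svb minus wt, x axis) with its 95% interval from the limma fit for the 16 known Svb targets (red) and the 6 other named genes past the threshold (blue); open circles did not pass. The intervals of tyn, dyl, ImpE1, PH4alphaEFB, CG31559 and CG4702 include 0, and values of sha and CG15370 rest on svb signals around or under the filter level.

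The svb arrays differed among themselves, and signals scattered more in svb than in wt embryos, over all tested probe sets as well as the named genes. The median SD of log2 signals over the named genes was 0.39 in svb embryos and 0.30 in wt embryos. Over all tested probe sets it was 0.32 and 0.27. The SD was larger in svb embryos for 91 of the 134 named genes and for 64.7% of all tested probe sets. The SD among svb arrays was largest for CG13616 (1.397) and CG10591 (1.32). Signals of CG10591 were 870.4, 476, 3314, 3199 and 635 on the svb arrays, against 2972, 2097, 1856, 3763 and 1846 on the wt arrays. Its svb replicates 3 and 4 lay inside the wt range, and replicates 1, 2 and 5 lay far below the lowest wt array. The same split was present in CG9184, which had 1665, 1376, 5343, 6100.4 and 1599 on the svb arrays, against 4389.9, 4457, 4247, 5677 and 3921 on the wt arrays. CG13082, CG6785 and CG8420 showed it as well, and so did CG11905, with 81.8, 46.5, 135, 144 and 69.5 on the svb arrays, against 154, 128, 171, 212 and 138 on the wt arrays. In these genes svb replicates 1, 2 and 5 were low and svb replicates 3 and 4 were at wt levels or above.

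The opposite order occurred for CG15506 and CG13627, whose svb replicates 3 and 4 were the lowest of their group: CG13627 had 409, 552, 212, 216 and 509.9 on the svb arrays, against 365, 438, 513, 236 and 463 on the wt arrays. Over all 134 named genes, replicates 3 and 4 were the 2 highest svb arrays for 59 and the 2 lowest for 22, and they were the 2 highest or the 2 lowest for 49.1% of all tested probe sets. Across all tested probe sets, which are not independent of each other and share the group mean, the deviations of svb replicates 3 and 4 from that mean had r = -0.05, those of replicates 1 and 2 had r = 0.67 and those of replicates 1 and 4 had r = -0.88. The labels name nothing that separates these arrays.

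**Figure D5:**
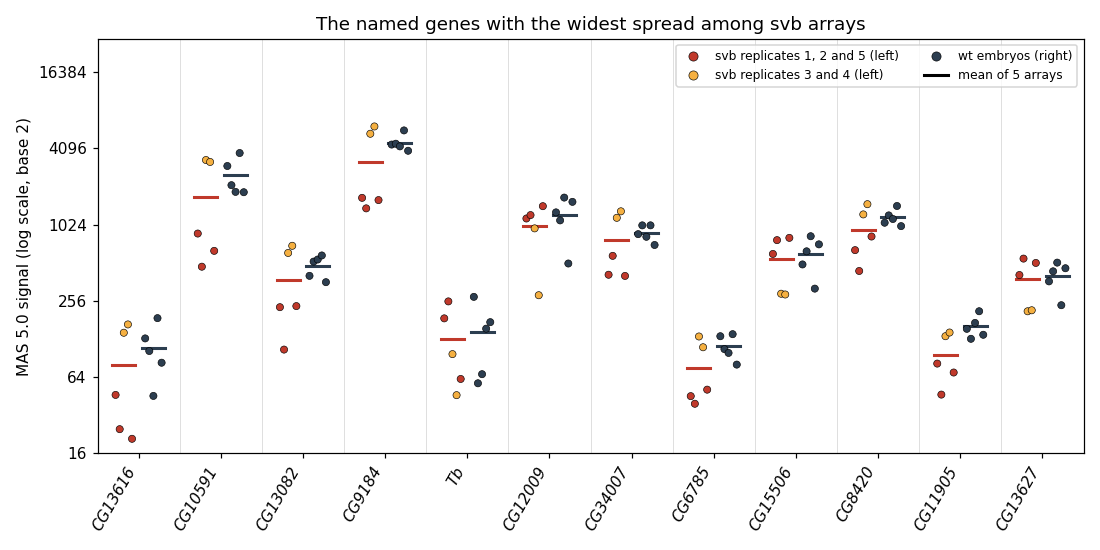
Signal on each array (y axis, logarithmic) for the 12 named genes with the largest SD of log2 signals among svb arrays, svb arrays left and wt arrays right in each column, with svb replicates 3 and 4 in yellow and bars at the mean of 5 arrays. In CG10591, CG13082, CG9184, CG34007, CG6785, CG8420 and CG11905 the yellow points sit with or above the wt arrays and the other svb arrays below them, and in CG13616 svb replicate 1 lies level with the lowest wt array.

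Leaving out these arrays changed which named genes passed. Without svb replicate 4, 17 named genes were lower, the 14 above plus CG11905, CG9184 and Orct, an organic cation transporter gene (limma adjusted p = 0.0140, 0.0335 and 0.0479). In that fit 351 of all 8197 probe sets tested were lower and 190 higher. Without svb replicates 3 and 4, a choice made after these values were seen, 23 were lower, 13 of them among the 14: CG13698 lost its call (adjusted p = 0.0802), and CG10591, CG11905, CG13082, CG13616, CG5039, CG6785, CG8420, CG9184, CHOp24 and mas gained one. Calls over all 8243 probe sets tested rose as well, to 411 lower and 308 higher. For CG10591 the log2 fold change was -0.97 over all 5 svb arrays (SE 0.46, adjusted p = 0.280), -1.31 without replicate 4 (adjusted p = 0.0704) and -1.91 without replicates 3 and 4 (adjusted p = 0.000369). Replicates 3 and 4 were left out because such genes were high on them. The calls gained and their p-values follow from that choice, and nothing is read from them. The number of known targets lower stayed at 8 in both cases, and none of the genes gained is on that list. Of the genes gained, CG11905, CG9184, CG10591, CG8420 and mas are on the list with a weaker stain in svb embryos. Orct, CG13082, CG13616, CG5039, CG6785 and CHOp24 are not on it.

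Most of the calls have no name here, since 305 of the 319 lower and all 172 higher probe sets lie outside the named genes. In 31 probe sets all wt arrays were at or over a signal of 32 and all svb arrays under it (30 of them past the threshold, CG15370 being the 1 named gene among them), and in 18 the reverse held (17 past it). By fitted fold change, which is no bound where signals lie under the level, the lowest of the calls without overlap were 1639336_at, with 0.240, 0.383, 0.398, 0.318 and 2.16 on the svb arrays, against 77.5, 178, 113, 178 and 84.0 on the wt arrays, and 1626394_at, with 2.24, 2.51, 5.26, 8.07 and 1.58 on the svb arrays, against 462, 445, 127, 171 and 119.8 on the wt arrays. Both were over the level on wt arrays only, at least 3.70-fold and 6.92-fold lower against the filter level. In pri embryos they averaged 0.530 ± 0.463 and 25.4 ± 38.2 (SD, n = 5 each), both means being under the level. With an SD above its mean, 1626394_at cannot have lain under the level on every pri array.

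The highest by the same measure were 1627093_at, with 45.5, 50.9, 145, 256 and 51.4 on the svb arrays, against 4.24, 0.275, 4.38, 5.28 and 3.67 on the wt arrays, and 1628989_at, with 44.6, 44.5, 56.7, 73.7 and 28.1 on the svb arrays, against 2.17, 0.662, 0.396, 0.382 and 2.69 on the wt arrays. They were under the level on all wt arrays and at least 2.66-fold and 1.47-fold higher in svb embryos, although 1628989_at was under the level on svb replicate 5 too. In pri embryos they averaged 2.52 and 0.286, again under the level.

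The pri embryos, whose comparison would share the wt arrays, give a second level for the same genes. For sha the means were 29.7 in svb, 7.91 in pri and 121 in wt embryos, and for m they were 659 in svb, 83.9 in pri and 1359.9 in wt embryos. For CG4702 the means were 2315 in svb, 415 in pri and 2451 in wt embryos. This order was a criterion by which the table was made, and it is given as a description.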

How the data were processed

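RNA of 5 svb and 5 wt embryo samples, and of 5 pri samples, was hybridised to Affymetrix GeneChip Drosophila arrays, 1 array a sample. The authors deposited linear intensities, made by MAS5 in Affymetrix Expression Console 1.1 and scaled to a trimmed mean of 100 (2% left out on each side). Equal total signal is thereby assumed, and dim values are unstable (down to 0.0237). Neither detection calls nor scanner files were used. No scan batch is named, and the genome build of the probes is not given in the sources used here.

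Of 18952 probe sets, 183 controls were left out and 10607 were too dim. The values were log2-transformed without an offset, and 3 group means over all 15 arrays were fitted by limma (version 3.58.1, under R 4.3.3; lmFit, then contrasts.fit and eBayes with a trend), adjusting p for svb minus wt by Benjamini and Hochberg over the 8162 tested probe sets with a threshold of 0.05. Intervals are 95% intervals of this fit. Percentages of wt are ratios of mean signals, means are ± SD of linear signals, and a group mean under the filter level of 32 gives a fold bound against that level. The fit was tested on simulated data.

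The authors' table of selected genes (149 rows, with intensities of the same arrays) was joined by values at a relative tolerance of 1e-05: 145 rows matched 1 probe set and 4 matched none. Left out were 9 rows with several symbols, 1 with conflicting identifiers and 1 repeat, which left 134 genes; 34 symbols were updated through RefSeq (Release 6 plus ISO1 MT). Named in the text are all known targets, all named genes that passed, up to 4 members of each other list by smallest adjusted p, the next 5 genes, the positive ones and the 2 unnamed probe sets with the largest fitted change in each direction; qua, Tb, CG11836, flz and genes with a wide spread or a call gained without an svb array were chosen after their values were seen. Members and the 24 gene lists, 14 of which have a named member, were chosen with earlier results of these data known. The settings tried besides were no trend, array weights, an offset of 16, quantile normalisation, centring on the median, filters at other levels, the 10 svb and wt arrays alone, a replicate block and leaving out each array. No arrays held the same values (highest correlation 0.966).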

Additional observations from a re-analysis of the deposited data

Results flagged for a closer look

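Within groups of 5 arrays, the highest or lowest array was compared with the rest by Dixon's criterion for each gene named by the rule and each measure of the arrays, 116 groups in all. In 3 of them 1 array lay beyond the criterion of 0.71. This is fewer than the about 1 in 20 that chance alone would give, so that the 3 are no excess. PH4alphaEFB had 1392 on svb replicate 4, while the other svb arrays lay between 724 and 783. The gene m had 1808 on wt replicate 2, while the other wt arrays lay between 1161 and 1299, and it was called lower in svb embryos without that array too. CG17562 had 155 on wt replicate 3, while the other wt arrays lay between 103 and 116.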

How the results depend on the processing

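With 5 arrays a group and dim signals near the filter level, small differences cannot be resolved. The 319 lower and 172 higher calls became 189 and 99 with a filter at a log2 level of 6.5, 556 and 349 with array weights, 221 and 109 with the 10 svb and wt arrays alone, and 411 and 308 without svb replicates 3 and 4. Leaving out 1 array gave 219 to 351 lower and 122 to 190 higher calls, 10 to 17 named genes lower and 7 to 9 known targets lower. The 14 named genes lower became 28 with array weights and 23 without svb replicates 3 and 4. The labels do not say whether samples with the same replicate number were handled together. Deviations of same-numbered arrays correlated between -0.41 and 0.34, and 1 of 5 svb arrays correlated best with its own number, which cannot settle the question. With the replicate block 254 probe sets were lower and 140 higher, with 13 named genes and 8 targets lower, and CG13698 and CG14756 lost their calls (adjusted p = 0.0777 and 0.0769 by limma). When 1 array was left out, the 3' to 5' difference (svb minus wt) lay between -0.761 and -0.424 for GAPDH, between -2.53 and -1.45 for eIF-4a and between -1.58 and -0.779 for actin. For GAPDH 6 of these 10 exact permutation tests gave p = 0.0635, for eIF-4a 6, and for actin 1 passed (p = 0.0159, without wt replicate 1). Over the 134 named genes, 2751 of 2814 re-fitted values kept their side of the threshold, 33 passed it anew and 30 no longer passed. The cause of these changes was not tested. Some settings use fewer arrays or probe sets, the filter at 6.5 leaving 5641 probe sets tested.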
